A study of Arabidopsis thaliana with 12 samples.

Results

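The WRKY genes encode plant transcription factors that bind DNA through a domain named after its conserved residues, Trp-Arg-Lys-Tyr. The genes described here are those for which the platform annotation of the AraGene 1.0 ST array gives exactly 1 gene per probe set, with a symbol made of WRKY and a number. This rule found 7 genes among the 38138 probe sets tested, each on 1 probe set: *WRKY6* (AT1G62300), *WRKY20* (AT4G26640), *WRKY22* (AT4G01250), *WRKY29* (AT4G23550), *WRKY41* (AT4G11070), *WRKY42* (AT4G04450) and *WRKY47* (AT4G01720). The RefSeq gene table for *Arabidopsis* holds 67 symbols of this form, so most of the family is not described. By their locus names 6 of the 7 lie on chromosome 4, which carries 16 of the 67. A further 3 probe sets name a WRKY gene together with another gene and were left out. None of the 7 shares its values with another probe set.

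The study asked which transcripts at dawn depend on the long night of short days and on the PIF quartet (PIFq), the bHLH factors PIF1, PIF3, PIF4 and PIF5, which accumulate in darkness and are degraded in light through phytochrome. The 12 arrays fall into 4 groups of 3 biological replicates, *pifq* SD, *pifq* LL, WT SD and WT LL, all from whole seedlings 3 days old. WT is Col-0, and *pifq* is a quadruple mutant that lacks the 4 factors. All seedlings had 2 days of short days (SD), each with 8 h of white light (85 µmol per m2 and s) before 16 h of darkness. The SD groups then had 1 more short day and were taken at the end of the night, whereas the LL groups had 1 day of continuous white light and were taken at the end of the subjective night, both at 24 h.

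WRKY proteins recognise the W-box in the promoters of their targets, and the family is best known for its part in immunity, senescence and nutrient responses. Many members are switched on quickly by pathogen signals through MAP kinase cascades, and others change with age, darkness or phosphate supply. The family is divided into groups by the number of WRKY domains and the type of zinc finger. *WRKY20* belongs to group I, with a pair of WRKY domains. *WRKY6*, *WRKY42* and *WRKY47* belong to group IIb, *WRKY22* and *WRKY29* to group IIe, and *WRKY41* to group III.

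The values are log2 signals from RMA, a method that removes background, sets the arrays to a shared distribution and combines the probes of each probe set. They were compared with limma in 5 ways: WT SD over WT LL (the SD response of WT), *pifq* SD over *pifq* LL (the SD response of *pifq*), *pifq* SD over WT SD (the genotype difference in SD), *pifq* LL over WT LL (the genotype difference in LL), and the SD response of *pifq* minus that of WT. These comparisons share arrays, and the WT SD arrays, for example, stand in both the SD response of WT and the genotype difference in SD. A difference counted as called with a change of at least 1.5 fold and a limma p under 0.05 after Benjamini-Hochberg adjustment over all probe sets.

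The median log2 signal of an array was at most 5.12 and at least 4.9982. The genotype difference in SD was -4.06 for *PIF3*, -3.74 for *PIF5* and -1.61 for *PIF1* on the log2 scale, and all 3 were called in limma. These genes were found through the list of called genes that accompanies the study, so their calls are not independent of it. Over all probe sets 1.49% were called in this comparison. *PIF4* was not matched to a probe set. Of 13 marker genes chosen for mesophyll, root, epidermis, xylem and seed, only *PYK10* of the root and *PDF1* of the epidermis could be matched. *PYK10* is named by the platform annotation. *PDF1* was matched only through the list of called genes, so its calls are not independent of that list. *PYK10* lay between 12.8 and 13.3 on all 12 arrays. Its SD arrays lay below its LL arrays in both genotypes. The log2 FC was -0.25 in WT (limma adjusted p = 0.244) and -0.23 in *pifq* (limma adjusted p = 0.311), neither called. Of all probe sets, 14.4% in WT and 11.3% in *pifq* had SD arrays wholly below the LL arrays. A part of this in the SD responses of the WRKY genes was not tested. The log2 signals of *PDF1* were 9.13, 8.52 and 8.92 in *pifq* SD, against 10.3, 9.94 and 10.2 in WT SD (log2 FC -1.29, limma adjusted p = 0.00425). *PDF1* was also lower in *pifq* SD than in *pifq* LL, where it read 10.03, 9.72 and 9.76 (log2 FC -0.98, limma adjusted p = 0.0105). Its part in the genotype differences and in the SD response of *pifq* given for the WRKY genes was not tested.

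*WRKY22* was the member called in the SD response of WT, where 6.6% of all probe sets tested were called. It acts in *Arabidopsis* immunity downstream of a MAP kinase cascade that the flagellin receptor FLS2 starts, and it is also known as a regulator of leaf senescence in darkness. Its log2 signals were 7.33, 7.21 and 6.87 in WT SD, against 5.66, 5.69 and 5.88 in WT LL. Every WT SD array lay above every WT LL array. The SD response of WT was a log2 FC of 1.39 ± 0.22 (SE, with 3 arrays in each group, limma adjusted p = 0.00257), a rise of 2.63 fold with a 95% interval of 0.91 to 1.88 on the log2 scale. The rise was called in all 20 other settings of the analysis. In whole seedlings, more cells that express a gene and more transcript per cell cannot be told apart.

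*WRKY22* had intermediate levels in *pifq*. The arrays read 6.32, 6.48 and 7.06 in *pifq* SD and 6.44, 5.94 and 5.96 in *pifq* LL (log2 signal). These 2 groups overlapped, as did *pifq* SD and WT SD, while every *pifq* LL array lay above every WT LL array. The mean levels were 6.62 ± 0.39 in *pifq* SD, 6.11 ± 0.29 in *pifq* LL, 7.14 ± 0.23 in WT SD and 5.74 ± 0.12 in WT LL (SD of the log2 signal, n = 3). From the highest to the lowest the groups were ordered WT SD, *pifq* SD, *pifq* LL and WT LL, and no group was called different from its neighbour in this order. The spread was widest in *pifq* SD, where 1 array reached the levels of WT SD.

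The comparisons that involve *pifq* did not reach the threshold for *WRKY22*. Its SD response in *pifq* was 0.51 ± 0.22 on the log2 scale (limma adjusted p = 0.249), with a 95% interval of 0.03 to 0.99, and 0.29 without *pifq* SD replicate 3 (limma adjusted p = 0.528, with 0.12 to 0.528 over all settings). The genotype difference in SD was -0.52 ± 0.22 (limma adjusted p = 0.414), with an interval of -1.0 to -0.04. The genotype difference in LL was 0.37 ± 0.22 (limma adjusted p = 0.865), with an interval of -0.11 to 0.85, and 0.20 without *pifq* LL replicate 1 (limma adjusted p = 0.951, with 0.686 to 1 over all settings). Over all settings the log2 FC was 0.29 to 0.67 for the SD response of *pifq*. It was -0.74 to -0.37 for the genotype difference in SD and 0.20 to 0.46 for that in LL. None of these differences was called, and all 3 intervals include changes both under and over 1.5 fold. The SD response of *pifq* minus that of WT was -0.89 ± 0.31 (limma adjusted p = 0.529, unadjusted p = 0.0154), with an interval of -1.57 to -0.21. Over all settings this value was -1.11 to -0.72 (limma adjusted p = 0.245 to 0.858). A difference between the genotypes in their SD response was thus not established after adjustment.

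**Figure D1:**
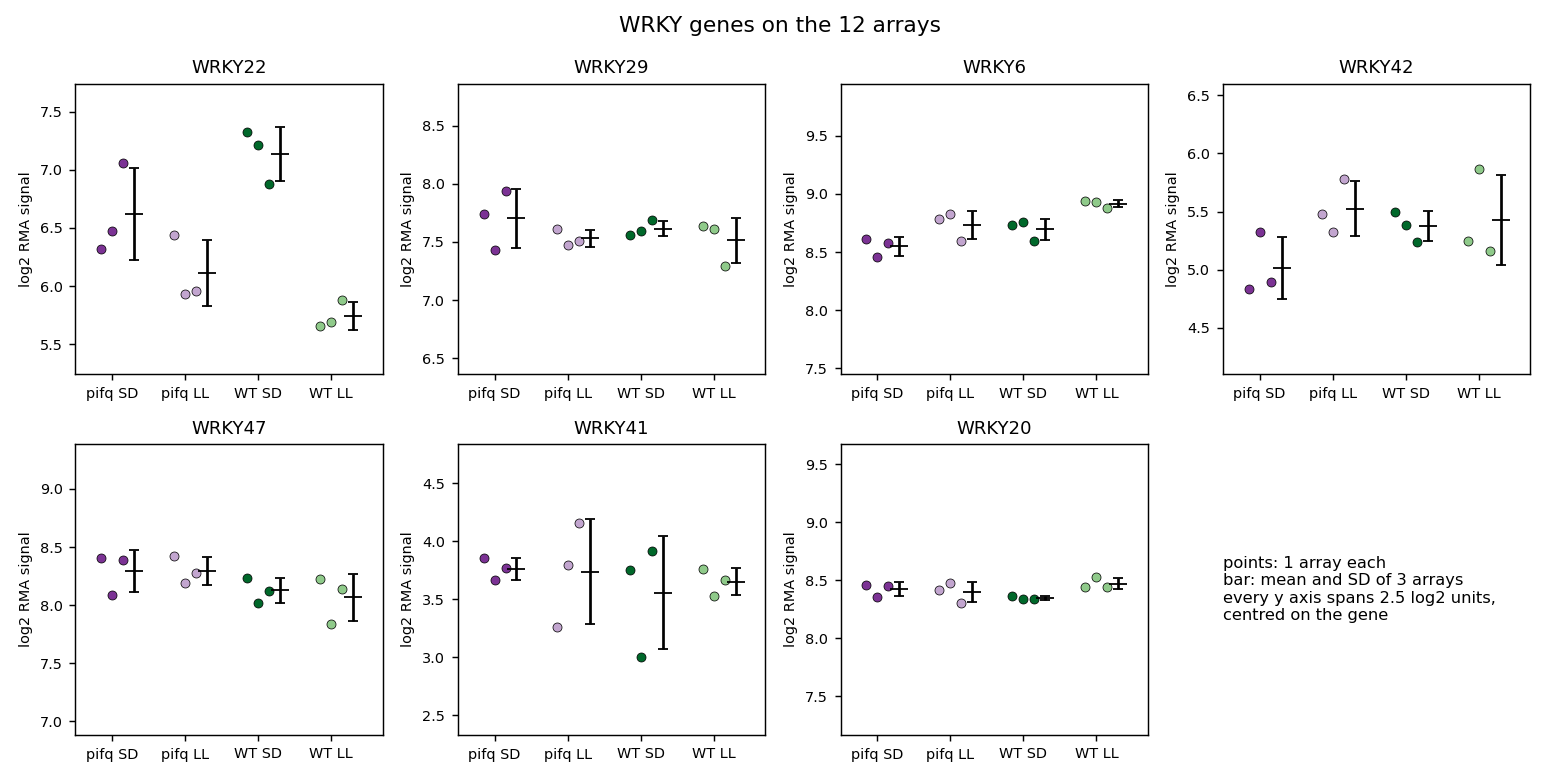
Log2 RMA signal (y axis, the same span in every panel) of the 7 WRKY genes in *pifq* SD, *pifq* LL, WT SD and WT LL (x axis), with 1 point per array and the mean and SD of 3 arrays beside them. *WRKY22* stands at 6.87 to 7.33 in WT SD, against 5.66 to 5.88 in WT LL, while the groups of the other genes overlap or lie close together.

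*WRKY29*, the other group IIe gene, acts with *WRKY22* in the same immune cascade. Its log2 signals were 7.74, 7.43 and 7.94 in *pifq* SD, 7.61, 7.47 and 7.51 in *pifq* LL, 7.56, 7.60 and 7.69 in WT SD and 7.64, 7.62 and 7.29 in WT LL. Within each comparison the groups overlapped. The SD response of WT was 0.10 ± 0.15 on the log2 scale (limma adjusted p = 0.798), with a 95% interval of -0.23 to 0.43 that lies inside 1.5 fold in either direction. The intervals of all 5 comparisons of *WRKY29* lay inside that limit.

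*WRKY6* is linked to senescence and defence and, like *WRKY42*, represses the phosphate exporter gene *PHO1*. Its log2 signals were 8.61, 8.46 and 8.58 in *pifq* SD, 8.78, 8.82 and 8.59 in *pifq* LL, 8.73, 8.76 and 8.59 in WT SD and 8.94, 8.93 and 8.88 in WT LL. The WT LL arrays lay above those of every other group. The SD response was -0.19 ± 0.11 in *pifq* (limma adjusted p = 0.403) and -0.22 ± 0.11 in WT (limma adjusted p = 0.281). The genotype difference was -0.15 ± 0.11 in SD (limma adjusted p = 0.745) and -0.18 ± 0.11 in LL (limma adjusted p = 0.859). None was called, and the 95% intervals of all 5 comparisons lay inside 1.5 fold.

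*WRKY42*, which also activates the phosphate transporter gene *PHT1;1*, varied more between replicates. The log2 signals were 4.83, 5.32 and 4.89 in *pifq* SD, 5.48, 5.32 and 5.78 in *pifq* LL, 5.50, 5.39 and 5.24 in WT SD and 5.25, 5.87 and 5.16 in WT LL. The lowest arrays were in *pifq* SD, and 1 array of that group overlapped with the others. The SD response was -0.51 ± 0.21 in *pifq* (limma adjusted p = 0.238, unadjusted p = 0.0369) and -0.05 ± 0.21 in WT (limma adjusted p = 0.939). The SD response of *pifq* minus that of WT was -0.46 ± 0.30 (limma adjusted p = 0.916), with a 95% interval of -1.13 to 0.21. A change past 1.5 fold lies within the interval of the SD response of *pifq*, -0.98 to -0.04.

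*WRKY47*, the third group IIb gene, ranged over the 12 arrays from 7.84 to 8.43. Its mean log2 signals were 8.29 ± 0.18 in *pifq* SD, 8.30 ± 0.12 in *pifq* LL, 8.13 ± 0.11 in WT SD and 8.07 ± 0.20 in WT LL (SD, n = 3). The genotype difference was 0.17 ± 0.14 in SD (limma adjusted p = 0.812) and 0.23 ± 0.14 in LL (limma adjusted p = 0.875). The means of both *pifq* groups were above those of WT, but the arrays of the genotypes overlapped in both light regimes. As for *WRKY6*, the 95% intervals of all 5 comparisons lay inside 1.5 fold.

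*WRKY41* is a group III gene with roles in defence and in the control of seed dormancy through *ABI3*. Its log2 signal was from 3.01 to 4.16, and it was the member whose mean lay under the median of all probe sets tested. Its replicates were 3.85, 3.66 and 3.77 in *pifq* SD, 3.26, 3.80 and 4.16 in *pifq* LL, 3.75, 3.01 and 3.92 in WT SD and 3.76, 3.53 and 3.66 in WT LL. The spread within *pifq* LL and WT SD covered all values of *pifq* SD and WT LL. Its log2 FC ranged over the 5 comparisons from -0.09 to 0.20, and none of its 95% intervals lay inside 1.5 fold. No difference was detectable for *WRKY41* with this spread, and a change of 1.5 fold could have been missed.

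*WRKY20*, the group I gene, had the tightest replicates of the 7. The arrays read 8.46, 8.36 and 8.45 in *pifq* SD, 8.41, 8.48 and 8.31 in *pifq* LL, 8.37, 8.34 and 8.34 in WT SD and 8.44, 8.53 and 8.44 in WT LL (log2 signal). All 12 arrays lay within 0.22 log2 units. The WT SD arrays lay below those of WT LL, with a log2 FC of -0.12 ± 0.09 (limma adjusted p = 0.553) and a 95% interval of -0.33 to 0.09. The intervals of all 5 comparisons lay inside 1.5 fold.

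Counted over the 7 genes, 1 rose in the SD response of WT, none fell and 6 were not called. The background in this comparison was 6.6% of the probe sets tested, 3.16% as rising and 3.43% as falling. At that rate 0.462 of 7 genes would be called, so the count of 1 was not set apart from the background. The median log2 FC of the 7 was -0.05, against -0.01 over all probe sets tested, and the median size of the change was 0.10, against 0.23. The WT SD arrays of 1 member lay wholly above WT LL and those of 2 wholly below, against 13.8% and 14.4% of all probe sets.

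None of the 7 genes was called by limma in the other comparisons. For the SD response of *pifq* the background was 3.66% (1.79% rising, 1.87% falling), and *WRKY22* and *WRKY42* had an unadjusted limma p under 0.05. For the genotype difference in SD it was 1.49% (0.632% rising, 0.855% falling), and only *WRKY22* had such a p. The genotype difference in LL had a background of 0.0184% (0.0105% rising, 0.00787% falling), and 0 of the 7 genes had an unadjusted limma p under 0.05. The difference of the SD responses had 0.155% (0.0157% positive, 0.139% negative), and only *WRKY22* had such a p.

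Groups whose arrays did not overlap were counted in these comparisons as well, except for the difference of the SD responses. In the SD response of *pifq* 0 of the 7 genes had groups apart, against 10.6% of all probe sets with *pifq* SD higher and 11.3% with it lower. In the genotype difference in SD it was again 0 of 7, against 8.86% higher and 6.71% lower. In LL the *pifq* arrays lay wholly above WT for 1 gene, *WRKY22*, and wholly below for 1, *WRKY6*, against 7.74% and 5.58% of all probe sets. The median log2 FC of the 7 was 0.02 for the SD response of *pifq*, 0.08 for the genotype difference in SD and 0.09 for that in LL, against -0.01, 0.03 and 0.02 over all probe sets tested.

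**Figure D2:**
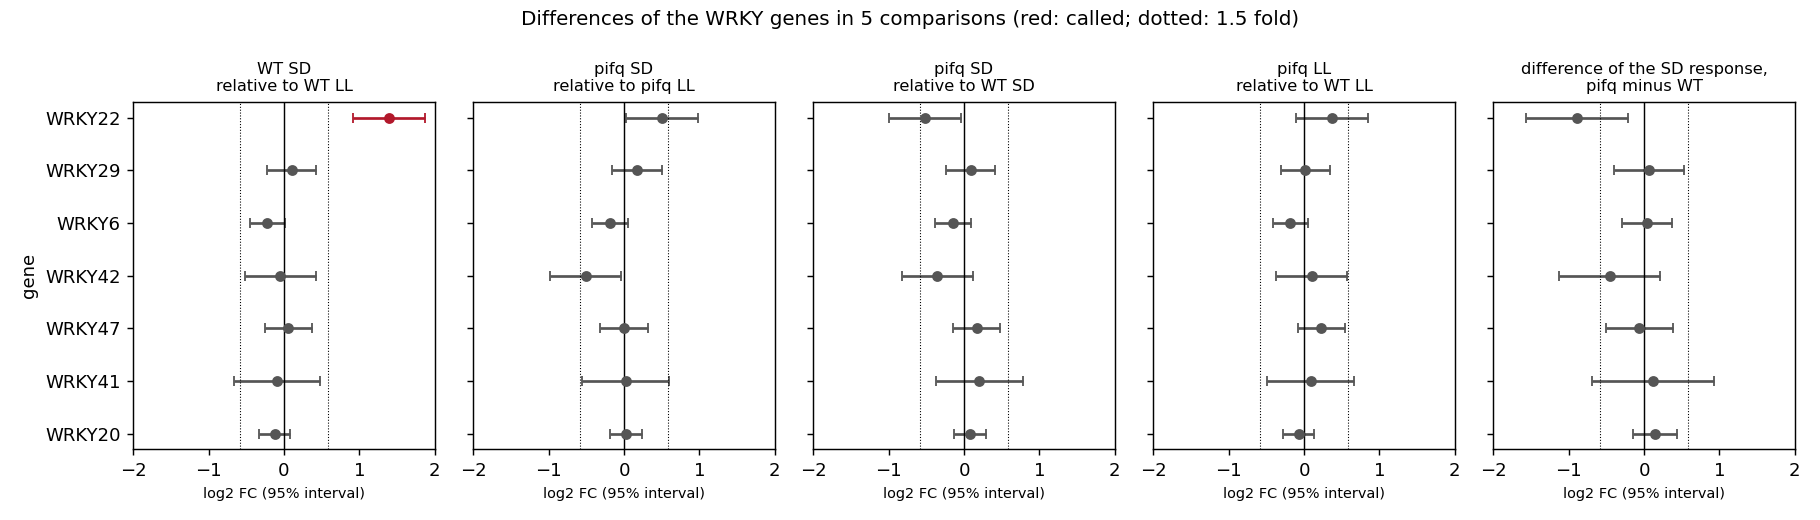
Log2 FC (x axis) of each WRKY gene (y axis) in the 5 comparisons, with 95% intervals from the limma fit, dotted lines at 1.5 fold and the called difference in red. The interval of *WRKY22* for WT SD over WT LL, 0.91 to 1.88, is the one that lies wholly beyond 1.5 fold.

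The intervals, which are not adjusted for the number of genes, bound what could have been missed. For the SD response of WT those of 5 of the 6 genes not called lay inside 1.5 fold, the exception being *WRKY41*. For the SD response of *pifq* and for the genotype difference in SD those of *WRKY6*, *WRKY20*, *WRKY29* and *WRKY47* did, and those of *WRKY22*, *WRKY41* and *WRKY42* did not. For the genotype difference in LL 5 of 7 did, all but *WRKY22* and *WRKY41*.

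Genes that act with WRKY factors were taken from a list of 47 receptors, MAP kinases, VQ proteins and genes of salicylic acid, defence, abscisic acid, senescence and phosphate responses. Only 4 are named by the platform annotation, and in the SD response of WT 1 of these rose and 3 did not pass the test, where 6.6% of all probe sets were called and 3.16% rose. The gene that rose was *IKU1* (AT2G35230), a VQ protein that binds a WRKY factor in the seed endosperm. Its log2 signals were 10.1, 10.3 and 10.2 in *pifq* SD, against 9.70, 9.75 and 9.71 in *pifq* LL, and 10.4, 10.2 and 10.4 in WT SD, against 9.75, 9.69 and 9.75 in WT LL. In both genotypes the SD arrays lay above the LL arrays, as they did for 13.8% of all probe sets in WT and 10.6% in *pifq*. The SD response of *IKU1* was 0.52 ± 0.10 on the log2 scale in *pifq*, which passed the adjusted p (limma, 0.0178) but not the fold, and 0.60 ± 0.10 in WT (limma adjusted p = 0.00398), close to the required 1.5 fold. Without WT SD replicate 1 it fell short of that fold in WT, at 0.56 (limma adjusted p = 0.021), and so it did without WT LL replicate 2.

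The other 3 were not called in the SD response of WT. The log2 FC was 0.14 for the receptor-like kinase gene *BIK1* (limma adjusted p = 0.477), -0.21 for *EFR*, the receptor of a bacterial elongation factor (limma adjusted p = 0.62), and -0.63 for the sugar transporter gene *SWEET15*, a senescence marker (limma adjusted p = 0.161). The log2 signals of *EFR* and *SWEET15* were low, at most 4.41 and 4.35 on any array, under the median of every array. None of the 4 genes was called by limma in the comparisons that involve *pifq*, where the share of all probe sets called was 3.66% for the SD response of *pifq*, 1.49% for the genotype difference in SD, 0.0184% for that in LL and 0.155% for the difference of the SD responses.

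A further 4 genes are named only through the study's list of called genes, so that their calls are not independent of it. The kinase genes *MPK3* (AT3G45640) and *MKK1* (AT4G26070) rose in the SD response of WT by 0.75 ± 0.14 (limma adjusted p = 0.00764) and 0.77 ± 0.12 (limma adjusted p = 0.00269) on the log2 scale. The senescence regulators *ORE1* (AT5G39610) and *NAP* (AT1G69490), both NAC factors, rose by 1.48 ± 0.16 (limma adjusted p = 0.00037) and 1.31 ± 0.15 (limma adjusted p = 0.000454). In this comparison 6.6% of all probe sets were called and 3.16% rose. In *pifq*, *NAP* rose by 0.90 ± 0.15 (limma adjusted p = 0.00878) and *ORE1* by 0.67 ± 0.16 (limma adjusted p = 0.0478). There *MPK3* had 0.54 (limma adjusted p = 0.0604) and *MKK1* 0.40 (limma adjusted p = 0.0968), and neither was called. For the SD response of *pifq* 3.66% of all probe sets were called and 1.79% rose. The SD response of *pifq* minus that of WT was not called for any of the 4 genes (limma adjusted p = 0.366 to 0.979), where 0.155% of all probe sets were called. A difference between the genotypes in the SD response was thus not established for them.

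*ORE1* was the one of these 4 with a called genotype difference in SD, -0.79 ± 0.16 (limma adjusted p = 0.044). In this comparison 1.49% of all probe sets were called, 0.855% as falling. *ORE1* read 5.44, 5.73 and 5.38 in *pifq* SD, against 6.04, 6.45 and 6.42 in WT SD (log2 signal). The groups did not overlap, as for 6.71% of all probe sets with *pifq* SD lower. This call was lost when any 1 of 9 arrays was left out, all but WT SD replicate 1, *pifq* SD replicate 2 and *pifq* LL replicate 3, with a log2 FC of -0.92 to -0.71 over all settings and an adjusted p of up to 0.222. The call of its SD response in *pifq* was lost without any 1 of 10 arrays, all but WT SD replicate 1 and *pifq* LL replicate 3, with a log2 FC of 0.56 to 0.80 and an adjusted p of up to 0.199.

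*WRKY24* (AT5G41570) is named through the same list and is therefore not one of the 7 genes. In *pifq* its log2 signals were 3.62, 3.16 and 3.02 in SD, against 4.45, 4.54 and 4.68 in LL. In WT they were 2.90, 3.34 and 3.14 in SD, against 4.84, 5.65 and 5.11 in LL. The SD arrays lay below the LL arrays in both genotypes, opposite to the direction of *WRKY22* in WT. Of all probe sets, 14.4% in WT and 11.3% in *pifq* had SD arrays wholly below the LL arrays. The signals of *WRKY24* in both SD groups and in *pifq* LL were low, under the median of every array. So was that of WT LL replicate 1. Because the gene came to that list through its call, these values are a description only.

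**Figure D3:**
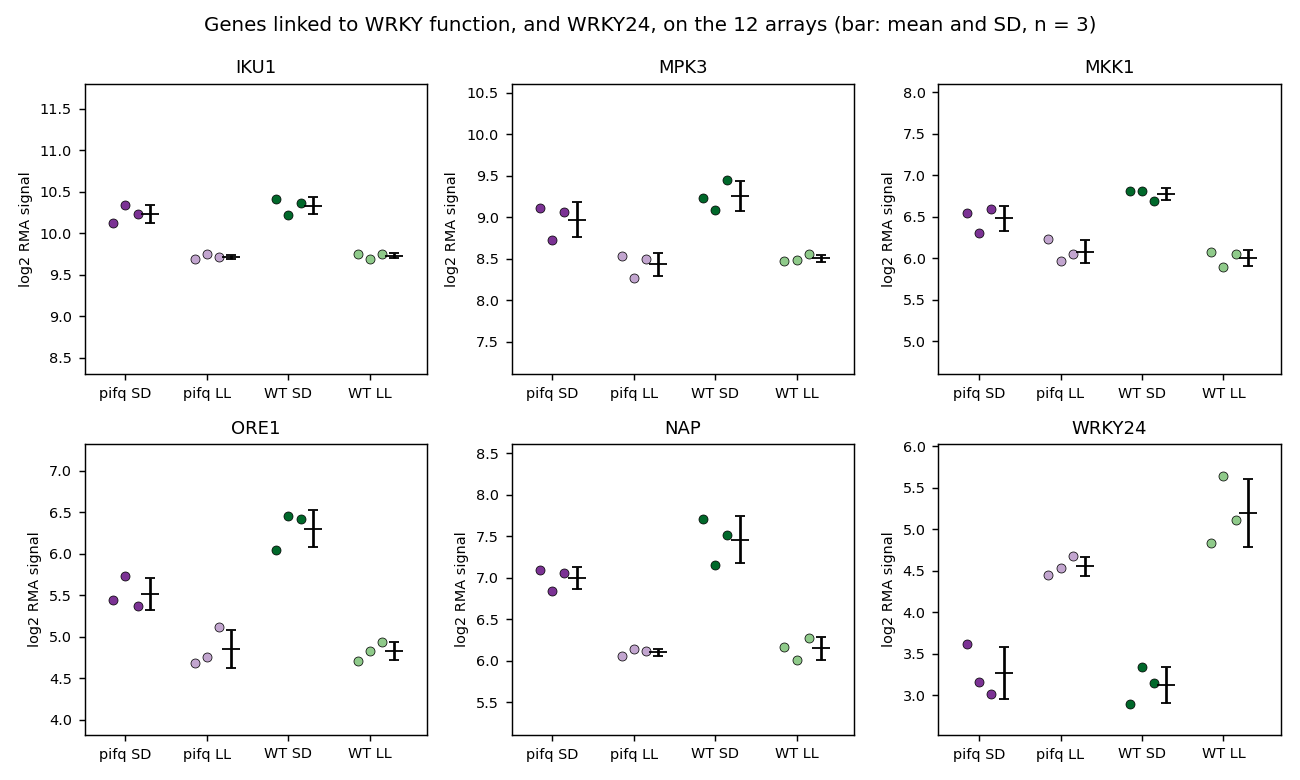
Log2 RMA signal (y axis) of *IKU1*, *MPK3*, *MKK1*, *ORE1*, *NAP* and *WRKY24* in *pifq* SD, *pifq* LL, WT SD and WT LL (x axis), with 1 point per array and the mean and SD of 3 arrays. The SD arrays of the first 5 genes lie above the LL arrays of the same genotype, and those of *WRKY24* lie below them. Over all probe sets the SD arrays lie wholly above for 13.8% in WT and 10.6% in *pifq*, and wholly below for 14.4% and 11.3%. All genes shown but *IKU1* were named only through the study's list of called genes.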

How the data were processed

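RNA of whole seedlings was measured on 12 arrays, 3 per group. The authors deposited log2 values from RMA, as the submitters' processing notes name it (its version and the genome build are not given in the sources used here), and no scaling was added. From 38408 probe sets, 98 controls were removed, as were 172 dimmer ones of genes with several, which left 38138. A single gene is named for 16722 probe sets, several for 759 and none for 20829. Identical values on all arrays are shared by 7102 of those tested.

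limma 3.58.1 in R 4.3.3 fitted 1 mean per group over all 12 arrays, in place of the error-weighted analysis of variance of the methods, which could not be run. Tested on simulated data of 38138 probe sets, for WT SD over WT LL, it called 80% of 100 changes of 2 and 41% of 100 changes of 1 on the log2 scale, with 6 unchanged probe sets. Fewer probe sets were changed there than the 2516 called in the data for this comparison. The adjustment depends on that share, so these rates need not hold for the data. The number of arrays limits the precision. The study's list of called genes, held in part, gave locus names only, and its fold changes and p-values were not used.

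The members and the gene lists were chosen with earlier results of these data known. All members are named, with values on every array for those the results turn on, and at most 4 called linked genes per role and comparison. Other settings were median centring, a filter at the median signal, an intensity trend, only the arrays compared, means over probe sets, single rows for identical values, no fold requirement, a replicate block and leaving out each array. Python 3.11.15, pandas 2.3.3, numpy 2.4.6 and matplotlib 3.10.9 made the tables and figures.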

Additional observations from a re-analysis of the deposited data

How the results depend on the processing

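In limma the count of WRKY genes called stayed at 1 in the SD response of WT and at 0 in the other 4 comparisons under every setting run (20 for each, 19 for the difference of the responses), leaving out each of the 12 arrays included. The called gene was *WRKY22* each time, with a log2 FC of 1.3 to 1.53 and an adjusted p of 0.000528 to 0.0145. With a replicate block its adjusted p was 0.00926 and the count was 1. Arrays of the same replicate number deviated together by r = 0.0806 to 0.348 between *pifq* SD and WT SD, where different numbers gave -0.232 to 0.119. Elsewhere the same numbers gave -0.0667 to 0.0546. The main fit did not use the numbers as pairs, so anything shared by replicates of *pifq* SD and WT SD was left out of it. The block changed no call of a WRKY gene. Without *pifq* SD replicate 3 the SD response in *pifq* was 0.29 for *WRKY22*, and without *pifq* LL replicate 1 its genotype difference in LL was 0.20, both not called. Over all settings these were 0.29 to 0.67 and 0.20 to 0.46. Without *pifq* SD replicate 3 its genotype difference in SD was -0.74 and its difference of the responses -1.11, both not called. *WRKY41* was not tested under the filter on low values. Calls over all probe sets did move. With only the arrays compared in the fit they were 68 in place of 567 for the genotype difference in SD and 185 in place of 1396 for the SD response of *pifq*. There *NAP* and *WRKY24* lost their calls in *pifq* (adjusted p = 0.0643 for each), *ORE1* lost both of its calls that involve *pifq*, and *PDF1* lost its calls against WT SD (adjusted p = 0.103) and *pifq* LL (adjusted p = 0.118). The difference of the responses had 59 calls, against 212 with the filter, 203 with the intensity trend and 35 with the replicate block. The genotype difference in LL had 7, against 18 with the filter and 18 with the trend. Without single arrays the counts were 275 to 503 for the genotype difference in SD, 833 to 1364 for the SD response of *pifq* and 6 to 50 for the difference of the responses. The causes were not tested.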
